A study of Mus musculus with 6 samples.

Results

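The genes described here encode 10 RNA-binding proteins that recognise AU-rich or related U-rich, GU-rich and C-rich elements in messenger RNA: Zfp36, Zfp36l1, Zfp36l2, Elavl1, Hnrnpd, Khsrp, Tia1, Tial1, Celf1 and Pcbp1. They were taken by name, through GENCODE symbols, from the 43629 mouse gene IDs of the count table, and all 10 were found and had enough counts to be tested. The table holds poly-A RNA counts from M1, a mouse neuroblastoma cell line. The 3 shIGF2BP1 libraries came from cells with a hairpin RNA against Igf2bp1, labelled as knockdown, and the 3 shNT libraries from cells with a non-targeting hairpin, labelled WT. In both groups the hairpin was induced with doxycycline at 4 to 6 µg/ml for 6 days. The labels name 1 hairpin per group and do not say whether the replicates were separate cultures, so the p-values cover only the variation among these 6 libraries, which may be technical. In bulk RNA, fewer cells that express a gene and less of its RNA per cell cannot be told apart.

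AU-rich elements are stretches of A and U in the 3' untranslated region (3' UTR) of short-lived messages such as those of cytokines, growth factors and immediate early transcription factors. Zfp36 (tristetraprolin) and its relatives Zfp36l1 and Zfp36l2 bind them through paired zinc fingers and recruit the CCR4-NOT deadenylase, so the message is shortened and degraded. Khsrp and some isoforms of Hnrnpd (AUF1) also promote decay, Elavl1 (HuR) mostly protects the message, and Tia1 and Tial1 hold back its translation and gather in stress granules. Igf2bp1, the protein targeted by the hairpin, is itself a stabilising messenger RNA-binding protein, and it shares some transcripts with this group, Myc among them.

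Several of these proteins are encoded by messages that carry the element themselves. The 7-base core TATTTAT, which holds the pentamer ATTTA, was searched on the transcript strand in the longest annotated 3' UTR of each gene. Elavl1 held 8 matches in 4218 bases, Zfp36 held 3 in 774 bases, Zfp36l1 held 3 in 1835 bases and Zfp36l2 held 3 in 1822 bases. Tia1, Tial1 and Celf1 held 1 each, and Hnrnpd, Khsrp and Pcbp1 held 0. One site of each gene with a match is shown because it is the element that the proteins read, with every base of a TATTTAT match in capitals (GENCODE M21 transcripts, GRCm38, DNA letters, 5′ to 3′).
Zfp36: gcccttTATTTATgacgacttTATTTATtg
Zfp36l1: ttggatTATTTATtttagaaattctcccct
Zfp36l2: ttaactTATTTATtatcttgtgaaaagtat
Elavl1: gaaaatTATTTATTTATTTATTTATtttTA
Tia1: acaatgTATTTATttaaaagattcattttt
Tial1: tgaaaaTATTTATtttaaaaattgaaatgt
Celf1: ggagaaTATTTATtacctaaattatatctc
The Elavl1 stretch holds 4 overlapping copies and the Zfp36 stretch holds 2, while the others shown hold 1. Among tested genes whose 3' UTR length lay within 20% of that of Elavl1, 59.3% held at least 1 match and 0.213% held at least 8. The same shares were 20.3% and, for at least 3 matches, 1.04% around the length of Zfp36, and 37.7% and 3.43% around that of Zfp36l1. A match is a string of letters, and binding was not measured.

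Library totals lay between 25119655 and 35373076 counts. Igf2bp1, the targeted gene, had 67, 35 and 311 counts in the libraries labelled shIGF2BP1, against 37, 175 and 201 in shNT, with a log2 fold change of 0.25 ± 0.79 (SE) and an edgeR adjusted p of 0.966. The label is therefore used here as a name for the libraries, and a fall of Igf2bp1 itself was not detectable. One library stood apart from the rest: on the first principal component of log2 CPM, which held 41.8% of the variance, shNT replicate 3 lay at 0.799 and the other 5 between -0.36 and 0.155. Of 14 markers of sympathetic neuroblasts, 6 had 0 counts in all 6 libraries, Chga, Dbh, Ret and Th among them. Of the 6 that were tested, 3 had a positive and 3 a negative log2 fold change, with a smallest edgeR adjusted p of 0.431, for Ddc. Ddc had 41, 20 and 34 counts in shIGF2BP1 and 8, 4 and 2 counts in shNT. It could pass the count filter only through the shIGF2BP1 libraries, where it was higher. Gata3 and Isl1 were on the negative side, with log2 fold changes of -0.58 and -0.28. Hand2, on the positive side, had 457, 432 and 429 CPM (counts scaled to a common library size after TMM normalisation) in shIGF2BP1 and 480, 262 and 257 CPM in shNT. The summed level of 7 mesenchymal markers was 4008 to 4717 CPM in shIGF2BP1 and 5839 to 6193 CPM in shNT, and its part in the results below was not tested. Most of that sum was Fn1 (fibronectin), at 1590 CPM in shIGF2BP1 and 2962 CPM in shNT on average, and Vim (vimentin), at 2275 and 2388 CPM, and Vim ran from 1149 to 3320 CPM within shNT. Prrx1, a mesenchymal transcription factor, had 68.4, 49 and 69.5 CPM in shIGF2BP1, against 130, 147 and 149 CPM in shNT (edgeR adjusted p = 0.13), while Yap1 had a log2 fold change of 0.23. Leukocyte markers summed to 4.16 to 6.18 CPM in shIGF2BP1 and 7.82 to 15 CPM in shNT, with Adgre1, Cd3e and Tyrobp at 0. Cd68 made up most of that sum, and Fcer1g lay the other way, with 10, 20 and 10 counts in shIGF2BP1 and 0, 6 and 1 counts in shNT.

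Levels of different genes are given per transcript length, in TPM (counts per merged exon length, scaled to a common total). Pcbp1, a poly-C-binding protein made from a single-exon gene, was the highest of the 10 at 589 ± 77.9 TPM (SD, n = 6 libraries), above 98.5% of tested genes. Zfp36l2 followed at 212 ± 132 TPM and Khsrp at 191 ± 36.1 TPM, and these neighbours were not separated, since Zfp36l2 was above Khsrp in 2 of 6 libraries. Pcbp1 was above Zfp36l2 in 5 of 6 libraries. In the remaining one, shNT replicate 3, Zfp36l2 had 478 TPM and Pcbp1 470 TPM.

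Tial1 came next at 110 ± 45.9 TPM, above Zfp36l1 in 4 of 6 libraries, then Zfp36l1 at 90.7 ± 21.7 TPM, Hnrnpd at 87.4 ± 21.9 TPM and Celf1 at 86.4 ± 14.8 TPM. All 4 had overlapping ranges and their order differed between libraries. Elavl1 had 35.6 ± 4.93 TPM and Tia1 17.9 ± 4.84 TPM on this scale. With the longest transcript as the length they had 49 and 47.9 TPM, so the gap between them depends on the length used. Merged exons of Tia1 span 15750 bases and its longest transcript 4477, and those of Elavl1 span 10363 and 5743 bases.

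Zfp36, the founding member of the family and an immediate early gene in many cell types, was almost silent at 0.642 ± 0.456 TPM, above only 3.74% of tested genes. It had 14, 55 and 12 counts in shIGF2BP1 and 4, 28 and 20 counts in shNT. Zfp36 therefore supplied 0.186% to 0.551% of the summed TPM of the 3 relatives in shIGF2BP1 and 0.0384% to 0.37% in shNT. Zfp36l2 made up 65.5%, 59.7% and 75.6% in shIGF2BP1, against 60.4%, 61.4% and 81.9% in shNT, and Zfp36l1 the rest. The family in these cells was thus carried by Zfp36l2 and Zfp36l1 in each library of both groups. Of the 2990 exon bases of Zfp36l1, 1672 are shared with a gene on the opposite strand. The level of Zfp36l1 and the shares above therefore depend on the strand setting of the counting, which is not stated. Zfp36l3, a placental relative named after its values were seen, had 0 CPM in both groups.

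**Figure D1:**
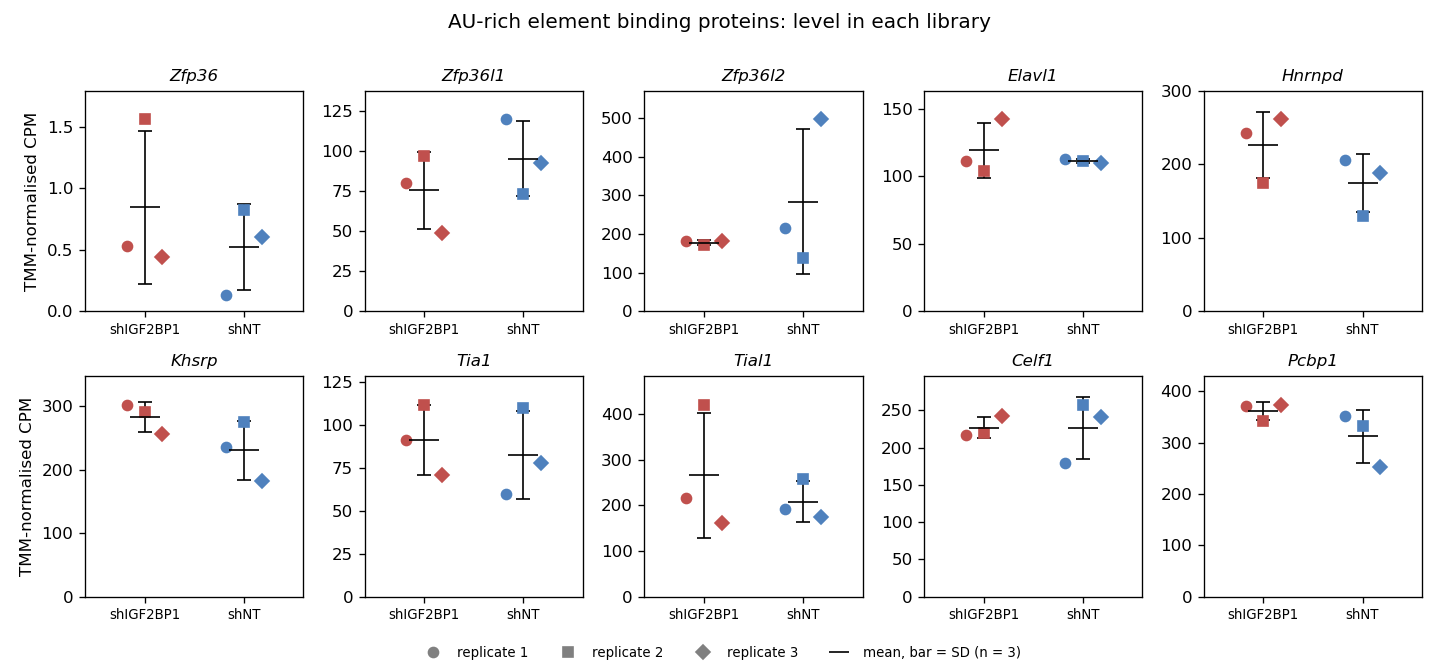
Level of each of the 10 genes in every library. The vertical axes give TMM-normalised CPM from 0, points are single libraries (shape = replicate number), bars are the mean and SD of 3 libraries, and the groups overlap in every panel, with Zfp36l2 at 497 CPM in shNT replicate 3.

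The hairpin comparison asked whether these regulators differ between shIGF2BP1 and shNT cells. Among the destabilising family, Zfp36l2 had 181, 172 and 181 CPM in shIGF2BP1, against 216, 139 and 497 CPM in shNT. The shIGF2BP1 libraries lay close together and inside the range of the shNT libraries, which was opened by replicate 3. Its log2 fold change was -0.67 ± 0.38 (SE; 95% interval -1.51 to 0.17; edgeR adjusted p = 0.778), and without shNT replicate 3 it was 0.0060. Zfp36l2 thus gave the smallest p of the 10 genes and its difference was not seen without that library.

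Zfp36l1 had 80.2, 97 and 49.2 CPM in shIGF2BP1 and 120, 73.3 and 92.7 CPM in shNT. The lowest library was shIGF2BP1 replicate 3 and the highest shNT replicate 1, and the groups overlapped. The log2 fold change of Zfp36l1 was -0.34 ± 0.27 (SE; 95% interval -0.94 to 0.27; edgeR adjusted p = 0.856), and negative without any 1 library, from -0.55 without shIGF2BP1 replicate 2 to -0.11 without shIGF2BP1 replicate 3. For Zfp36, at 0.534, 1.56 and 0.438 CPM in shIGF2BP1 and 0.135, 0.822 and 0.605 CPM in shNT, the log2 fold change of 0.70 ± 0.73 (95% interval -0.91 to 2.31) became -0.09 without shIGF2BP1 replicate 2. The few counts of Zfp36 leave that interval wide, from a fold of 0.533 to 4.94.

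Elavl1, the stabilising protein, was the steadiest of the group. It had 111, 104 and 142 CPM in shIGF2BP1 and 113, 111 and 110 CPM in shNT. The shNT libraries differed by less than 3 CPM, and 1 shIGF2BP1 library, replicate 3, stood above the rest. The log2 fold change of Elavl1 was 0.10 ± 0.19 (SE), and its interval bounds the fold between 0.798 and 1.44 (edgeR adjusted p = 0.944). It became -0.05 without shIGF2BP1 replicate 3 and 0.20 without shIGF2BP1 replicate 2. The SD of its log2 CPM over the 6 libraries, 0.157, was larger than that of only 7.19% of tested genes.

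Hnrnpd and Khsrp, the other proteins tied to AU-rich decay, each had a positive log2 fold change under every scaling and without any 1 library, but neither passed the test. Hnrnpd had 243, 175 and 261 CPM in shIGF2BP1 and 206, 130 and 188 CPM in shNT. Replicate 2 was the lowest library of each group, and the ranges overlapped. The log2 fold change of Hnrnpd was 0.38 ± 0.24 (SE; 95% interval -0.16 to 0.91; edgeR adjusted p = 0.801), and 0.20 without shNT replicate 2. The 4 Hnrnpd protein isoforms, which differ in their effect on decay, are not separated by counts per gene.

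Khsrp, a KH-domain protein that brings the exosome and decapping enzymes to its targets, had 302, 291 and 257 CPM in shIGF2BP1 and 236, 275 and 182 CPM in shNT. The highest shNT library lay above the lowest shIGF2BP1 library, and shNT replicate 3 was the lowest of the 6. Its log2 fold change was 0.30 ± 0.22 (SE; 95% interval -0.19 to 0.78; edgeR adjusted p = 0.836), and 0.15 without shNT replicate 3.

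The translational repressors Tia1 and Tial1 both peaked in shIGF2BP1 replicate 2 and were next highest in shNT replicate 2. Tial1 had 216, 421 and 162 CPM in shIGF2BP1 and 193, 259 and 174 CPM in shNT, a log2 fold change of 0.35 ± 0.33 (SE; edgeR adjusted p = 0.885) that became -0.13 without shIGF2BP1 replicate 2. Tia1 had 91.4, 112 and 71 CPM in shIGF2BP1 and 59.9, 110 and 77.8 CPM in shNT, a log2 fold change of 0.15 ± 0.26 (SE; edgeR adjusted p = 0.940). Leaving out shNT replicate 1 gave -0.04 for Tia1, and leaving out shIGF2BP1 replicate 2 gave -0.01.

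Celf1 (CUG-binding protein 1), which reads GU-rich elements and also recruits deadenylases, had 217, 220 and 243 CPM in shIGF2BP1 and 179, 258 and 241 CPM in shNT. Its group means were 227 ± 14.2 and 226 ± 41.5 CPM in shIGF2BP1 and shNT (SD, n = 3 each), and its log2 fold change of 0.0049 ± 0.21 (SE) bounds the fold between 0.729 and 1.38. Pcbp1 had 372, 342 and 373 CPM in shIGF2BP1 and 352, 332 and 253 CPM in shNT, with shNT replicate 3 the lowest library. Its log2 fold change was 0.22 ± 0.22 (SE; edgeR adjusted p = 0.889), and 0.08 without shNT replicate 3. On the TPM scale, which has no TMM factor, its groups did not overlap (648 ± 37.3 TPM in shIGF2BP1 and 531 ± 60 TPM in shNT), as was so for 11.9% of tested genes in either direction and for 8.71% with shIGF2BP1 higher.

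Across the 10 genes, 0 were called by edgeR at an adjusted p under 0.05 (adjusted p from 0.778 to 0.998), against 0.0223% of the 13445 genes tested. At an unadjusted p under 0.05 edgeR also counted 0 of 10, against 7.16% of genes tested (3.17% higher and 3.99% lower in shIGF2BP1). CPM groups that did not overlap were found for 0 of 10, against 11.6% of genes tested (6.06% higher and 5.59% lower in shIGF2BP1). DESeq2 and limma-voom called 0 of 10 each, against 0.61% and 0.00744% of genes tested. The log2 fold change was positive for 8 of 10 and negative for Zfp36l1 and Zfp36l2, with a median of 0.18, against 48.5% positive and a median of -0.01 over all genes tested. Leaving out a library gave 5 to 9 positive members, and without shIGF2BP1 replicate 2, where 5 were positive, the median was 0.01. Without shNT replicate 3 the median was 0.10. With 3 libraries a group, any fold inside a gene's own 95% interval remained compatible with its counts. The interval was narrowest for Elavl1 (0.798 to 1.44) and widest for Zfp36 (0.533 to 4.94). It was 0.729 to 1.38 for Celf1, 0.351 to 1.12 for Zfp36l2 and 0.771 to 2.11 for Tial1.

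**Figure D2:**
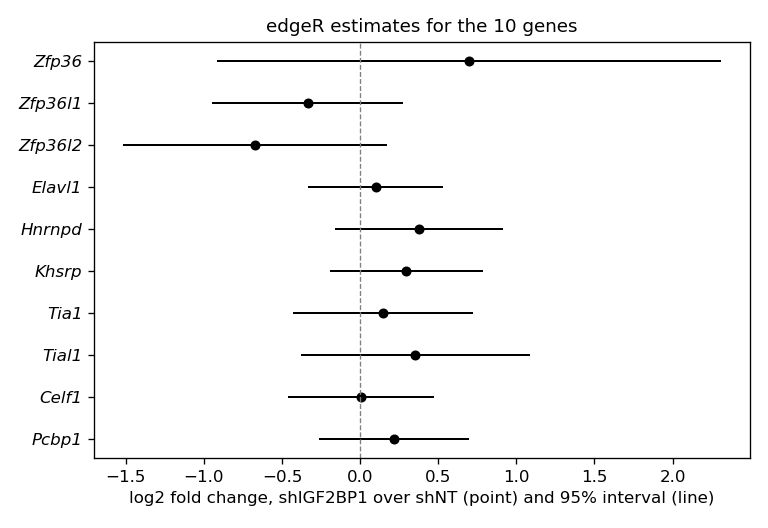
edgeR log2 fold change of each gene, shIGF2BP1 over shNT. Points are estimates and lines 95% intervals on the horizontal axis, and each line crosses 0, from the narrow one of Elavl1 (-0.33 to 0.52) to the wide one of Zfp36 (-0.91 to 2.31).

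Covariation over the 6 libraries was measured as the correlation of log2 CPM for all 45 pairs of the 10 genes, with two-sided exact permutation tests whose smallest possible p is 0.00139. A single pair cannot pass an adjustment over 45 pairs at that p, and no pair passed an adjusted p of 0.05. The 36 pairs among the 9 genes at 5 CPM or more had a median Pearson r of -0.04, with 14 of 36 positive, against a median of 0.0015 over all pairs of the 10480 tested genes at that level. Over all 45 pairs, 18 were positive. All points share the libraries, and r of Hnrnpd with the log2 library total was -0.881.

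The pair with the highest r was Zfp36 and Tia1, at r = 0.907 (exact permutation p = 0.00556, adjusted over 45 pairs 0.25) and Spearman's rho = 0.943 (exact permutation p = 0.0167, adjusted 0.385). It was 0.906 for deviations from the group means and 0.858 without the 2 libraries farthest from the Zfp36 median, but rests on the 133 Zfp36 counts of the 6 libraries. For each pair those 2 libraries were picked on the first gene named. Picking them on the other gene was not tried, so these values do not show that a relation holds without outlying libraries. Tia1 and Tial1, the paralogous stress granule proteins, had r = 0.78 (exact permutation p = 0.0514, adjusted 0.713) and rho = 0.829 (exact permutation p = 0.0583, adjusted 0.385). Their r was 0.763 within groups and 0.997 without the 2 libraries farthest from the Tia1 median. Both genes were highest in replicate 2 of each group.

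The lowest r was that of Zfp36l2 and Khsrp, at -0.91 (exact permutation p = 0.0292, adjusted 0.656) with rho = -0.771 (exact permutation p = 0.103, adjusted 0.385). It was -0.931 within groups and -0.82 without the 2 farthest libraries. Khsrp and Pcbp1 had r = 0.833 (exact permutation p = 0.0792, adjusted 0.713) and rho = 0.371 (exact permutation p = 0.497, adjusted 0.769). Their r was -0.494 without the 2 libraries farthest from the Khsrp median. Dropping those libraries narrows the range of Khsrp, so the change of sign does not show that the relation rests on them. Zfp36l2 and Pcbp1 had r = -0.844 and rho = -0.03 (exact permutation p = 0.14 and 1, adjusted 0.743 and 1), and r was -0.09 without the 2 farthest libraries. In shNT replicate 3 Zfp36l2 was at its highest and Khsrp and Pcbp1 at their lowest. The absolute r of these 3 genes with the first principal component, on which that library stood apart, was 0.732, 0.818 and 0.86, and its part in their covariation was not tested. Hnrnpd ran against Tia1, Zfp36 and Tial1 for deviations from the group means (r = -0.946, -0.87 and -0.862) and less so over the 6 libraries (-0.602, -0.443 and -0.517).

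**Figure D3:**
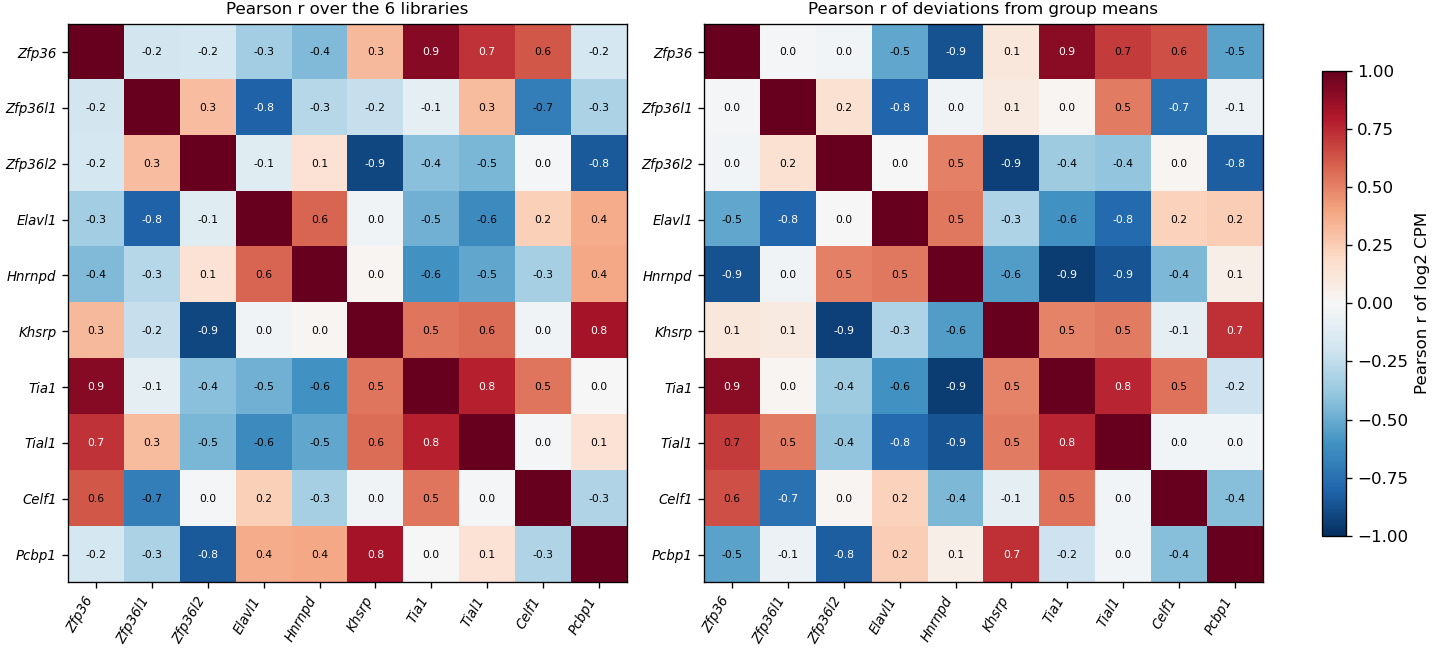
Pearson r of log2 CPM for every pair of the 10 genes, over the 6 libraries (left) and for deviations from the group means (right). Red is positive and blue negative on a scale from -1 to 1, and the strongest cells on the left are Zfp36 with Tia1 (0.907) and Zfp36l2 with Khsrp (-0.91), while Hnrnpd with Tia1 (-0.946) is the strongest negative cell on the right.

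Igf2bp1 counts ranged widely within both groups. The 10 genes were also set against Igf2bp1 itself, a comparison chosen after its values were seen. Zfp36l1 had r = -0.81 with Igf2bp1 (exact permutation p = 0.0403, adjusted over 10 genes 0.264) and rho = -0.771 (exact permutation p = 0.103). It was -0.687 without the 2 libraries farthest from the Igf2bp1 median. Celf1 had r = 0.742 (exact permutation p = 0.0792, adjusted 0.264) and rho = 0.657 (exact permutation p = 0.175), with 0.96 without the 2 farthest. Elavl1 had r = 0.71 (exact permutation p = 0.0694, adjusted 0.264) and rho = 0.429 (exact permutation p = 0.419), but r = -0.937 without the 2 farthest libraries. Those libraries were picked on Igf2bp1 alone, so the change of sign does not show that the relation rests on them. No relation with Igf2bp1 passed the correction.

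The profiles of the 3 genes with the largest spread over libraries (Zfp36, Zfp36l2 and Tial1) were compared with every tested gene of 5 CPM or more by Pearson's r over the 6 libraries, as a description. Nearest to Zfp36l2 were Rhob (r = 0.996), a small GTPase, then Bloc1s2 (0.996), Faf2 (0.992), Snx19 (0.99) and Ociad1 (0.99). Rhob had 101, 95.4 and 114 CPM in shIGF2BP1 and 126, 67.5 and 401 CPM in shNT. Rhob and Zfp36l2 ranked the 6 libraries in the same order, with shNT replicate 3 far above the others in both. An r of at least 0.95 with Zfp36l2 was found for 79 of 10479 genes.

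Nearest to Zfp36 were Prkdc (r = 0.991), the catalytic subunit of the DNA-dependent protein kinase, Atat1 (0.986), an α-tubulin acetyltransferase, Plekhh2 (0.985), Trrap (0.984), a scaffold of histone acetyltransferase complexes, and Unk (0.984), an RNA-binding zinc finger protein. No immediate early gene was among them, but a list this short would rarely hold a member of so small a class. Some of that class, such as Fos, Fosb and Dusp1, lay below the CPM limit and were not compared. The list therefore cannot show whether Zfp36 follows the immediate early genes. An r of at least 0.95 with Zfp36 was found for 26 of 10480 genes, and its profile rests on 4 to 55 counts per library. Nearest to Tial1 were Enpp5 (0.994), Cluap1 (0.989), Dmpk (0.988), the kinase mutated by repeats in myotonic dystrophy, Ppox (0.987), an enzyme of haem synthesis, and Adcy6 (0.987), an adenylyl cyclase. Dmpk had 8.62, 18.1 and 5.98 CPM in shIGF2BP1 and 6.77, 11.7 and 6.23 CPM in shNT, which follows the replicate 2 peaks of Tial1. For Tial1, 48 of 10479 genes had an r of at least 0.95.

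Shared transcripts were next compared. Of 35 messages known for AU-rich elements or Zfp36-family regulation, 28 were tested, 6 had a positive and 22 a negative log2 fold change, and 0 passed an edgeR adjusted p of 0.05. At an unadjusted p under 0.05 edgeR counted 2, both lower, against 3.99% of genes tested that were lower at that p. Their median log2 fold change was -0.41, against -0.01 over all genes tested, -0.02 without shNT replicate 3, where 13 were positive, and -0.66 without shIGF2BP1 replicate 2. With no filter on low counts, 34 genes of the list were tested, 13 were positive and the median was -0.15. Myc, the growth-promoting transcription factor, had 3.17, 6.87 and 8.68 CPM in shIGF2BP1, against 6.03, 10.9 and 121 CPM in shNT (edgeR adjusted p = 0.574). Klf2, a Krüppel-like factor, had 11.6, 13.1 and 10.3 CPM in shIGF2BP1 and 21.4, 9.83 and 32.2 CPM in shNT (edgeR adjusted p = 0.688). Both were highest in shNT replicate 3, the library with the most Zfp36l2. Ier2, an immediate early protein, had 40.7 ± 5.44 CPM in shIGF2BP1 and 78.3 ± 50.4 CPM in shNT (SD, n = 3 each). The cytokine messages Tnf, Il1b, Cxcl2, Csf2 and Csf3 were too low to be tested.

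Of 20 immediate early genes, the class to which Zfp36 belongs, all were tested and 3 had a positive log2 fold change, with a median of -0.67. Without shNT replicate 3 the median was -0.12 with 7 positive, and without shNT replicate 2 it was -0.9995. Atf3, a stress-induced factor, had 2.56, 3.8 and 7.37 CPM in shIGF2BP1 and 5.19, 8.13 and 54.8 CPM in shNT. Klf4, a zinc finger factor, had 65.4, 73.5 and 74 CPM in shIGF2BP1 and 84.1, 81.5 and 389 CPM in shNT, and Fosl1, which pairs with Jun proteins, averaged 32.7 ± 12.3 CPM in shIGF2BP1 and 122 ± 137 CPM in shNT (SD, n = 3 each). Atf3, Klf4 and Fosl1, named for their small p, stood several-fold higher in shNT replicate 3 than in the other libraries. Zfp36, at 0.605 CPM there, did not, and some genes of the list did not either. Fos, Fosb and Dusp1 had 3.54, 3.51 and 2.63 CPM in shNT replicate 3, against 3.23, 4.77 and 2.44 CPM in shIGF2BP1 replicate 2. None of the 20 passed an edgeR adjusted p of 0.05, and 5 had an unadjusted p under 0.05, all lower, against 3.99% of genes tested that were lower at that p. The place of shNT replicate 3 on the first principal component moved with these differences, and its part in them was not tested. Myc, Klf2, Ier2, Fos, Fosb, Jun, Junb, Ier3, Dusp1 and Nr4a1 stood in both lists.

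**Figure D4:**
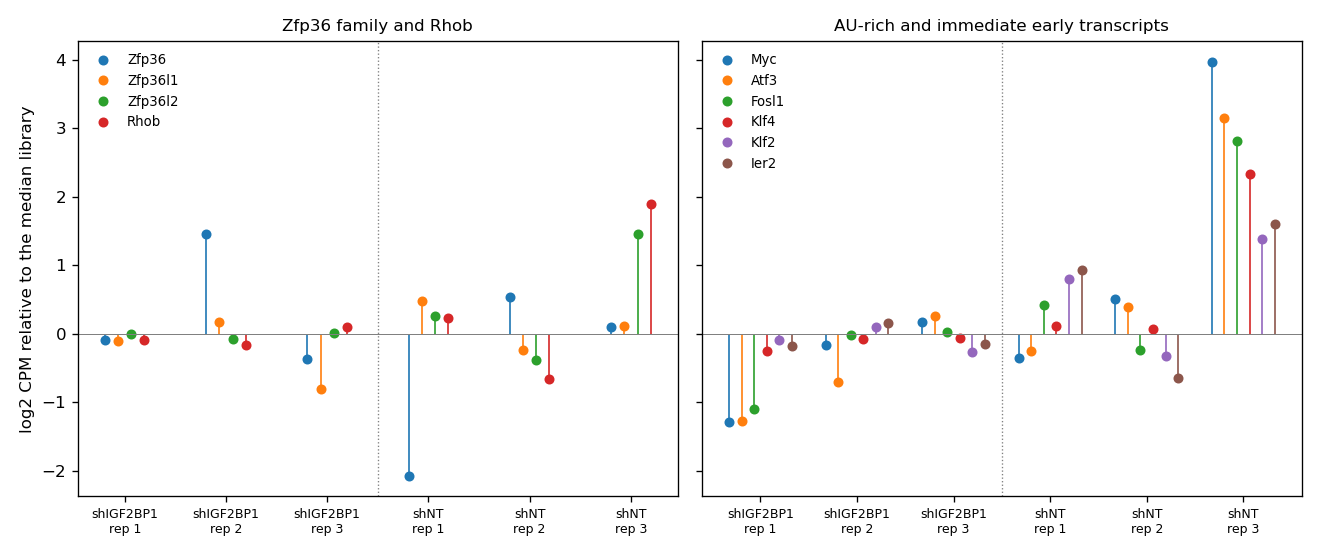
log2 CPM of each library relative to the median library of that gene, for the Zfp36 family with Rhob (left) and for AU-rich and immediate early messages (right). Zfp36l2, Rhob, Myc, Atf3, Fosl1, Klf4, Klf2 and Ier2 are highest in shNT replicate 3, while Zfp36 is highest in shIGF2BP1 replicate 2 at 1.56 CPM.

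All messages with the element were then grouped by the number of TATTTAT matches in the longest annotated 3' UTR, over 11330 tested genes. The 449 genes with 3 or more matches had a median log2 fold change of -0.12 with 39.2% positive, the 777 genes with 2 matches -0.08 with 38.6% positive, the 2236 genes with 1 match -0.03 with 44.3% positive, and the 7868 genes with 0 matches 0.0044 with 50.5% positive. Without shNT replicate 3 the medians were -0.02, -0.03, -0.0024 and 0.01 in the same order. With the pentamer ATTTA in place of TATTTAT, the 4408 genes with 3 or more matches had a median of -0.06 with 41.9% positive. For 3 or more TATTTAT matches the median was -0.04 without shNT replicate 2, -0.18 without shNT replicate 1, -0.08 without shIGF2BP1 replicate 2 and -0.04 with library size only, which moved the median of all genes tested to 0.07. Of the genes with 3 or more matches 0 were called by edgeR, and 8.24% had an unadjusted p under 0.05, against 7.61% of all 11330. The median 3' UTR was 3290 bases long with 3 or more matches and 879 bases with 0, and the part of that length in the medians was not tested.

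Partner machinery was then read from the same edgeR results, and 0 genes of these lists passed an adjusted p of 0.05. Of 22 tested relatives and other AU-rich or U-rich binding proteins, 12 had a positive and 10 a negative log2 fold change. At an unadjusted p under 0.05 there were 0, against 7.16% of genes tested. The list median was 0.05, with 0.0077 without shIGF2BP1 replicate 1 and 0.14 without shNT replicate 2. Hnrnpa2b1, an abundant nuclear RNA-binding protein, had 1188 ± 137 CPM in shIGF2BP1 and 889 ± 254 CPM in shNT (SD, n = 3 each). Fubp3, a relative of Khsrp, had 96.9 ± 15.8 and 76 ± 15.3 CPM in shIGF2BP1 and shNT, and Hnrnpa0, a target of the MK2 kinase, had 247 ± 7 and 197 ± 71.5 CPM. Arid5a, which protects Il6 message, had 9.69, 18.1 and 21.8 CPM in shIGF2BP1, against 15.4, 10.2 and 67.4 CPM in shNT, and again stood highest in shNT replicate 3. The neuronal relatives of Elavl1, named after their values were seen, were low: Elavl2 had 2.89 CPM in shIGF2BP1 and 2.46 CPM in shNT on average, Elavl3 0.472 and 0.085 CPM, and Elavl4 0 CPM in both, the last 2 too low to be tested.

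Of 19 deadenylation genes, 9 had a positive and 10 a negative log2 fold change, with a median of -0.01 that was 0.08 with library size only and ran from -0.09 to 0.06 when a library was left out (without shNT replicates 3 and 2). At an unadjusted p under 0.05 there were 3, all lower in shIGF2BP1, against 3.99% of genes tested. Btg1 and Tob2, of the antiproliferative family that binds the Caf1 deadenylases, and Cnot7, a Caf1 deadenylase itself, were those 3. Btg1 had 50.3, 67.8 and 53.5 CPM in shIGF2BP1, against 95.5, 74.8 and 112 CPM in shNT (log2 fold change -0.72 ± 0.22 SE; edgeR adjusted p = 0.525). Tob2 had 59.1, 43.9 and 46 CPM in shIGF2BP1, against 76.5, 71 and 82.6 CPM in shNT (log2 fold change -0.63 ± 0.20 SE; edgeR adjusted p = 0.562). Cnot7 had 62.8, 55.3 and 53 CPM in shIGF2BP1, against 77.9, 73.4 and 75.7 CPM in shNT (log2 fold change -0.41 ± 0.18 SE; edgeR adjusted p = 0.695). The groups did not overlap for these 3 genes, as for 11.6% of all genes tested. Cnot6, another catalytic subunit, had 188 ± 56.6 CPM in shIGF2BP1 and 148 ± 31.3 CPM in shNT.

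Of 17 decapping and 5'-to-3' decay genes, 12 were positive and 5 negative, with a median log2 fold change of 0.11 that was 0.03 without shIGF2BP1 replicate 3 and 0.05 without shNT replicate 1. At an unadjusted p under 0.05 there was 1 member, against 7.16% of genes tested. It was Lsm7, a subunit of the Lsm ring that binds deadenylated ends, with 54.9, 48.1 and 58.8 CPM in shIGF2BP1 and 39.9, 33 and 21.5 CPM in shNT (edgeR adjusted p = 0.571). Dcp1b and Dcp1a, decapping co-activators, had 33.7 ± 12 and 40.4 ± 1.28 CPM in shIGF2BP1 and 48.8 ± 5.2 and 52.5 ± 10.2 CPM in shNT, and Lsm2 had 66.2 ± 9.3 and 53.9 ± 9.04 CPM in shIGF2BP1 and shNT. Of 16 exosome genes, 8 were positive and 8 negative, with 0 at an unadjusted p under 0.05, against 7.16% of genes tested. The list median of 0.0027 took either sign when a library was left out, from -0.05 without shNT replicate 2 to 0.08 without shIGF2BP1 replicate 2. Exosc10, a nuclear exosome nuclease, had 159, 179 and 167 CPM in shIGF2BP1 and 129, 138 and 132 CPM in shNT (edgeR adjusted p = 0.754). Its groups did not overlap, nor did those of Exosc9, as for 11.6% of all genes tested. Exosc4 and Exosc9, ring subunits, had 38.9 ± 4.93 and 42.3 ± 7.83 CPM in shIGF2BP1 and 27.4 ± 8.14 and 32.1 ± 2.36 CPM in shNT, and Ttc37, of the Ski complex, had 65.9 ± 14.9 and 92 ± 31 CPM in shIGF2BP1 and shNT.

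Kinases of the p38 and MK2 pathway phosphorylate Zfp36 and its relatives, and 14-3-3 proteins then bind them. A list of these genes, of the p38 activators Map2k3 and Map2k6 and of the phosphatase Dusp1 was split 8 positive and 7 negative. That was among 15 tested, with a median log2 fold change of 0.01. That median took either sign when a library was left out, from -0.14 with 5 positive without shNT replicate 2 to 0.11 with 9 positive without shNT replicate 3, and 11 were positive without shIGF2BP1 replicate 2. Map2k6, an activator of p38, had 18.3, 10.4 and 16.5 CPM in shIGF2BP1 and 7.11, 10.6 and 4.14 CPM in shNT (log2 fold change 1.05 ± 0.37 SE; edgeR adjusted p = 0.620). Mapkapk2, which encodes MK2, had 94.4, 97.6 and 122 CPM in shIGF2BP1, against 139, 135 and 154 CPM in shNT (log2 fold change -0.45 ± 0.19 SE, edgeR adjusted p = 0.686). Its groups did not overlap, nor did those of Map2k3, which lay the other way, as for 11.6% of all genes tested. Ywhag, a 14-3-3 protein, had 369 ± 73.3 and 522 ± 190 CPM in shIGF2BP1 and shNT, and Mapk14, which encodes p38α, had 73.6 ± 10.3 and 92.7 ± 9.04 CPM (SD, n = 3 each). Map2k6 (higher in shIGF2BP1) and Mapkapk2 (lower) were the 2 of 15 at an unadjusted p under 0.05. Of all genes tested, 3.17% were higher and 3.99% lower at that p.

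**Figure D5:**
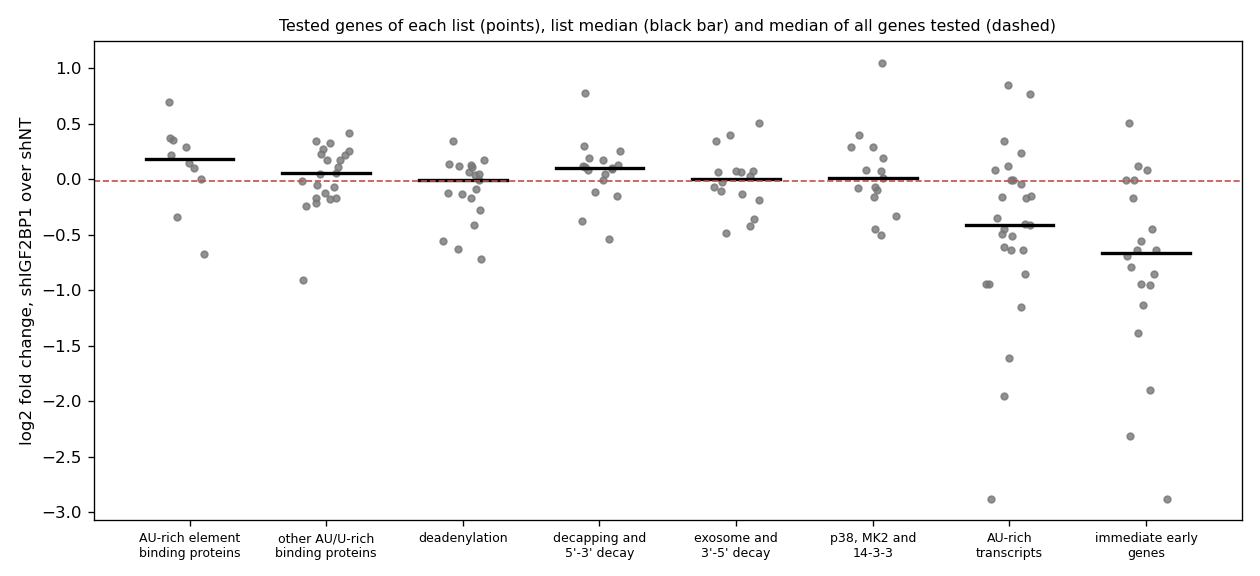
log2 fold change, shIGF2BP1 over shNT, of every tested gene of the 10 and of each partner list. Points are genes, black bars list medians and the dashed line the median of all genes tested (-0.01), and the AU-rich and immediate early messages lie lowest (medians -0.41 and -0.67).

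The 10 protein-coding genes lie on separate loci of GRCm38, with Zfp36 at chr7:28376784-28380253 (minus strand), Zfp36l1 at chr12:80107754-80113013 (minus strand), Zfp36l2 at chr17:84183931-84187947 (minus strand), Elavl1 at chr8:4285382-4325413 (minus strand), Hnrnpd at chr5:99955935-99978938 (minus strand). They further include Khsrp at chr17:57021051-57031522 (minus strand), Tia1 at chr6:86404219-86433405 (plus strand), Tial1 at chr7:128439777-128461717 (minus strand), Celf1 at chr2:90940382-91019497 (plus strand) and Pcbp1 at chr6:86524492-86526321 (minus strand). Overlapping annotation limits some of these values. Elavl1 shares 204 exon bases with Ccl25 on the opposite strand, which had 2156 counts in all 6 libraries against 21221 for Elavl1. Pcbp1 shares 75 exon bases with the antisense transcript 1600020E01Rik, with 1345 counts against 62122. Zfp36l1 shares 1672 of its 2990 exon bases with Gm26669 on the opposite strand, which had 17 counts against 15983. These counts do not show how many reads in the shared bases were left uncounted. No source used here states the strand setting of the counting, so reads in the shared bases cannot be assigned with certainty.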

How the data were processed

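The authors deposited raw read counts per gene for 6 poly-A libraries. The tools listed in the submitters' processing notes, without their roles, are HTSeq, HISAT2 2.1.0 and bcl2fastq, and the genome build listed there is GRCm38. No source used here states the annotation release, strand setting or read filters. Of 43721 rows, 92 were spike-in sequences with 0 counts. GENCODE M21 gave symbols for 42548 of 43629 gene IDs, and the 1081 unmatched IDs held 0.111% of counts. Columns were joined to samples by library name.

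Counts were tested with edgeR 4.0.16 in R 4.3.3 (TMM, robust quasi-likelihood F test, two-sided, no covariates) over 13445 genes. Benjamini-Hochberg adjustment ran over all of them, with a threshold of 0.05. The filterByExpr defaults asked for a scaled level worth about 10 counts in at least 3 libraries, and 15 counts in total. A gene could therefore pass through 1 group alone. Standard errors and 95% intervals were derived from the F statistic. Correlations used log2 CPM with a prior count of 2. TPM was computed here from counts and merged exon length. 3' UTRs of at least 50 bases were searched. DESeq2 1.42.0 and limma-voom 3.58.1 were alternatives, beside RLE factors, library size only, no filter, the replicate block and leaving out each library. Scripts were tested on simulated data. No 2 libraries agreed within sampling noise.

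The members and lists were chosen with earlier results of these data known. Named genes were the 10 members, up to 4 genes of each partner list with the smallest p, and the 5 nearest profiles of the 3 most variable members. Other genes, such as cell type markers and the relatives of Elavl1, were named after their values were seen. Some genes that this rule names are not reported here.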

Additional observations from a re-analysis of the deposited data

How the results depend on the processing

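No member, no partner gene and no pair of members was called under any alternative run for it. The count of all genes called was 3, and stayed 3 with RLE factors or library size only. It was 138 without a filter, 82 with DESeq2, 18 with the replicate block, 1 with limma-voom, 1 at a stricter threshold of 0.01, and 1 to 5 when a library was left out. Deviations of same-numbered libraries correlated at 0.193, -0.0936 and 0.275, and those of differently numbered libraries at -0.368 to 0.215. These values do not settle whether the numbers are pairs. The main fit took no pairs, and the block changed no call on a member. Leaving out a library turned the log2 fold change of 6 members, which ran from -0.090 to 1.18 for Zfp36, -1.002 to 0.0060 for Zfp36l2, -0.050 to 0.20 for Elavl1, -0.039 to 0.41 for Tia1, -0.13 to 0.61 for Tial1 and -0.14 to 0.11 for Celf1. Zfp36l1, Hnrnpd, Khsrp and Pcbp1 kept their sign in all 12 alternatives. The correlation of Khsrp and Pcbp1 became -0.494 without the 2 libraries farthest from the Khsrp median. The median of AU-rich messages was -0.02 without shNT replicate 3 and -0.15 without a filter. TPM with the longest transcript was 449 for Pcbp1 and 70.9 for Celf1. Sign counts and 3' UTR classes under each alternative were added after seeing the data. The cause of these shifts was not tested.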
